A study of Sus scrofa with 3 samples.

Results

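MHC class II antigen presentation was examined in visceral adipose tissue through 10 genes chosen by name, namely the swine leukocyte antigen (SLA) class II chains, the invariant chain CD74 and the transactivator CIITA. Of these, 9 were among the 22826 mRNA genes with deposited values, and CD74 was not analysed here. The tissue was visceral fat, taken from the retroperitoneal depot, of male Wuzhishan miniature pigs, a Chinese breed. The pigs entered the study at 6 to 7 months of age and ate a diet rich in fat and cholesterol (HFC) for 12 weeks. The intact males (IM) kept their testes, the castrated males (CM) had them removed, and the castrated males with testosterone replacement (CMT) also received weekly testosterone propionate at 10 mg/kg. All groups ate the HFC diet, and no group on a normal diet was compared. RNA of 4 to 6 pigs per group, by the sample labels, was mixed before sequencing, where the methods of the study name only the lower end of that range. Each group is thus 1 library. There are no replicates, the spread within a group is unknown, and no test between conditions could be made.

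MHC class II molecules are pairs of an alpha and a beta chain that carry peptides from engulfed proteins to the cell surface for recognition by CD4+ T cells. The classical molecules DR and DQ present the peptides. DM loads peptides inside endosomes, and DO holds DM in check. CD74 blocks the groove until the molecule reaches the endosome, where proteases cut it away, and CIITA switches on the whole set together with the RFX and NFY factors bound to the promoters. Macrophages, dendritic cells and B cells are the main carriers of class II molecules, and other cells of fat can carry them when stimulated.

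Levels are given in UQRPKM, which is reads per kilobase of gene scaled by the upper quartile of reads per gene in the library, so levels of different genes can be compared. Reads behind each value were recovered from the steps of the values, and the libraries held 15106608 (CMT) to 16611931 (IM) reads over all genes. A 95% interval beside a level is an exact Poisson interval, and a 95% interval beside a log2 ratio is an exact Clopper-Pearson interval from the reads of a pair of libraries. Both cover counting error only, not the spread between pigs. The 3 comparisons, CM to IM (CM/IM), CMT to CM (CMT/CM) and CMT to IM (CMT/IM), share their libraries and are not independent. Since the tissue was sequenced in bulk, fewer cells of a type and less RNA per cell cannot be told apart.

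The classical class II chains were among the most abundant mRNAs of this fat, while CIITA and SLA-DOB were not. SLA-DRA, the alpha chain of DR, stood at 8852 UQRPKM in the IM library, 9761 in the CM library and 7912 in the CMT library. It was highest in CM and lowest in CMT, and in IM 0.772% of the expressed mRNA genes stood above it. The 4 classical chains together took 0.238% of the mRNA reads of IM, 0.270% of those of CM and 0.241% of those of CMT. SLA-DRA alone held 46.9%, 47.6% and 45.1% of their summed UQRPKM, respectively.

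From here on, values of 3 libraries are in the order IM, CM, CMT. SLA-DQB1, the beta chain of DQ, stood at 4189, 4276 and 3380.5 UQRPKM. Its partner SLA-DQA1 stood at 3784, 3841 and 3513 UQRPKM. The ranges of these partners over the libraries overlapped, and within CMT their counting intervals overlapped too. SLA-DRB1, the beta chain of DR, stood at 2058, 2618 and 2749.96 UQRPKM, below both DQ chains in every library. It was the only classical chain with its highest level in CMT.

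The chaperones of peptide loading stood lower. SLA-DMA had levels of 1099, 1102 and 917 UQRPKM, and SLA-DMB of 948, 991 and 845. Their ranges over the libraries overlapped, and both were lowest in CMT. SLA-DOA, the alpha chain of DO, had 222, 217 and 164 UQRPKM. CIITA had 52.5, 41.7 and 34.0 UQRPKM from 238, 180 and 151 reads, and in IM 49.2% of the expressed mRNA genes lay above it. Both were highest in IM and lowest in CMT.

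SLA-DOB, the beta chain of DO, was barely detected. It had 2.89, 7.59 and 10.3 UQRPKM, which rest on 2, 5 and 7 recovered reads. The interval of its level ran from 0.3503 to 10.5 UQRPKM in IM, from 2.46 to 17.7 in CM and from 4.15 to 21.3 in CMT. These intervals overlap, so no difference of SLA-DOB between libraries was detectable at this depth. In order of level the members ran from SLA-DRA through the DQ chains, SLA-DRB1, the DM chains, SLA-DOA and CIITA to SLA-DOB, and this order was the same in all 3 libraries, apart from the DQ chains, which changed places in CMT.

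**Figure D1:**
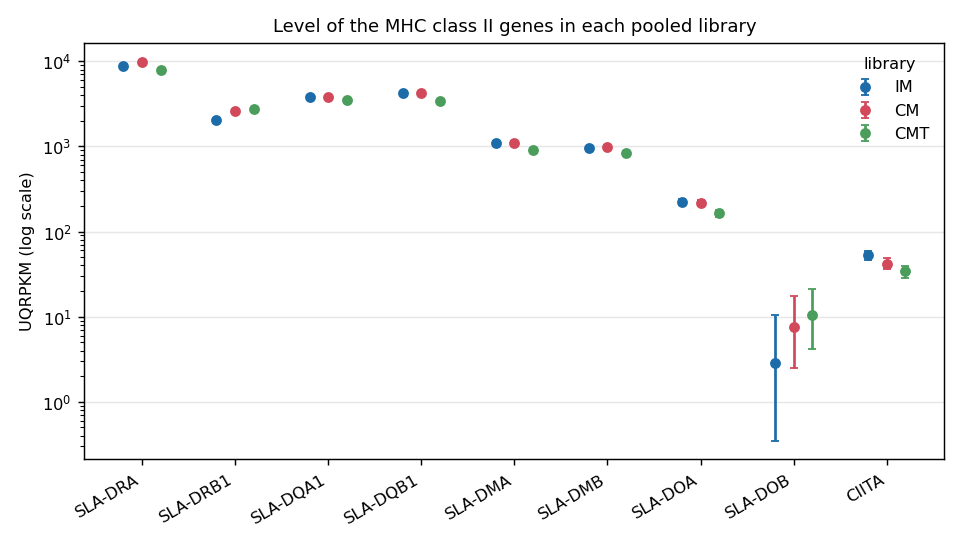
Level of the 9 class II genes in UQRPKM (log axis) in the IM, CM and CMT libraries, with bars for the exact Poisson 95% interval of each library's reads. SLA-DRA lies at 7912 to 9761 UQRPKM, CIITA at 34.0 to 52.5, and SLA-DOB at 2.89 to 10.3 with wide bars.

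CM/IM addresses castration under the HFC diet. SLA-DRA was 1.10-fold higher in CM (log2 ratio 0.14, 95% interval 0.11 to 0.17) and SLA-DRB1 was 1.27-fold higher (0.35, 0.29 to 0.41). CIITA was 1.26-fold lower in CM, with a log2 ratio of -0.33 (95% interval -0.62 to -0.05). For the DQ chains, the DM chains and SLA-DOA, the log2 ratios lay between -0.03 and 0.06, and each interval included 0 with the deposited scaling. Counting SLA-DOB, the interval lay above 0 for 2 members, below 0 for 1 and included 0 for 6. These calls depend on the scaling. The libraries were also centred, with the median log2 ratio to IM of the mRNA genes at 10 UQRPKM or more in all libraries set to 0. Under that centring the interval lay above 0 for 5 members, SLA-DQA1, SLA-DQB1 and SLA-DMB now among them. It lay below 0 for 0 members, and that of CIITA included 0. Of all mRNA genes at 1 UQRPKM or more in both libraries, 42.3% had an interval that left out 0, 15.6% upward and 26.6% downward.

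A member was called past the fold at 1.5-fold at 1 UQRPKM or more in both libraries, the size thresholds of the study without its test. In CM/IM 1 of 9 members passed, SLA-DOB, upward, and 0 passed downward. Of 14123 mRNA genes 18.8% passed, 8.38% upward and 10.4% downward. The share was 5.36% among genes at 50 UQRPKM or more in both libraries, and 11.7% when the interval also had to leave out 0. The log2 ratio of SLA-DOB was 1.39 with an interval from -1.22 to 4.78. The median log2 ratio of the members was 0.03, beside -0.06 over all mRNA genes.

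CMT/CM addresses testosterone given after castration. Most class II genes were slightly lower in CMT. SLA-DRA was 1.23-fold lower (log2 ratio -0.30, 95% interval -0.33 to -0.27) and SLA-DQB1 was 1.26-fold lower (-0.34, -0.39 to -0.29). SLA-DQA1 was 1.09-fold lower, with a log2 ratio of -0.13 (-0.18 to -0.08). Among the loading chaperones, the log2 ratio was -0.27 for SLA-DMA (95% interval -0.37 to -0.16), -0.23 for SLA-DMB (-0.32 to -0.13) and -0.40 for SLA-DOA (-0.58 to -0.22). CIITA had a log2 ratio of -0.29 whose interval, from -0.62 to 0.03, included 0. SLA-DRB1 stood apart from the other classical chains with a log2 ratio of 0.07 (0.02 to 0.13), and SLA-DOB had 0.45 from 5 and 7 reads.

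In CMT/CM 0 of 9 members passed the fold, beside 19.5% of 14098 mRNA genes (9.53% upward, 9.97% downward). The share was 5.81% among genes with at least 50 UQRPKM, and 12.4% when the interval also had to leave out 0. The log2 ratio was below 0 for 7 of the 9 members, beside 52.7% of these mRNA genes. Its median over the members was -0.27, beside -0.02 over all mRNA genes. The interval lay above 0 for 1 member and below 0 for 6, and it left out 0 for 38.4% of the mRNA genes (17.3% upward, 21.1% downward). Genes with many reads have narrow intervals, and most members have many reads, so these shares are not matched for depth.

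CMT/IM sets castrated pigs under testosterone beside intact pigs. CIITA was 1.54-fold lower in CMT (log2 ratio -0.63, 95% interval -0.93 to -0.33). With the libraries scaled to the total UQRPKM of mRNA genes its log2 ratio was -0.58 and no longer passed the fold. SLA-DOA was 1.35-fold lower (-0.43, -0.61 to -0.26), and SLA-DQB1 was 1.24-fold lower (-0.31, -0.36 to -0.26). SLA-DRB1 was 1.34-fold higher (0.42, 0.36 to 0.48), while its partner SLA-DRA was 1.12-fold lower (-0.16, -0.19 to -0.13). Of the mRNA genes at 50 UQRPKM or more in both libraries, 17.5% differed by more than SLA-DRB1 did.

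In CMT/IM 2 of 9 members passed the fold, CIITA downward and SLA-DOB upward, beside 20.7% of 14151 mRNA genes (8.81% upward, 11.9% downward). The share was 7.51% among genes with at least 50 UQRPKM, and 13.5% when the interval also had to leave out 0. The interval of SLA-DOB, from -0.56 to 5.14 around a log2 ratio of 1.84, included 0. The interval lay above 0 for 1 member and below 0 for 7 (5 under the centring given for CM/IM). It left out 0 for 44.5% of the mRNA genes (15% upward, 29.5% downward). The median log2 ratio of the members was -0.17, beside -0.08 over all mRNA genes, while their mean was 0.021, which turns on SLA-DOB.

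**Figure D2:**
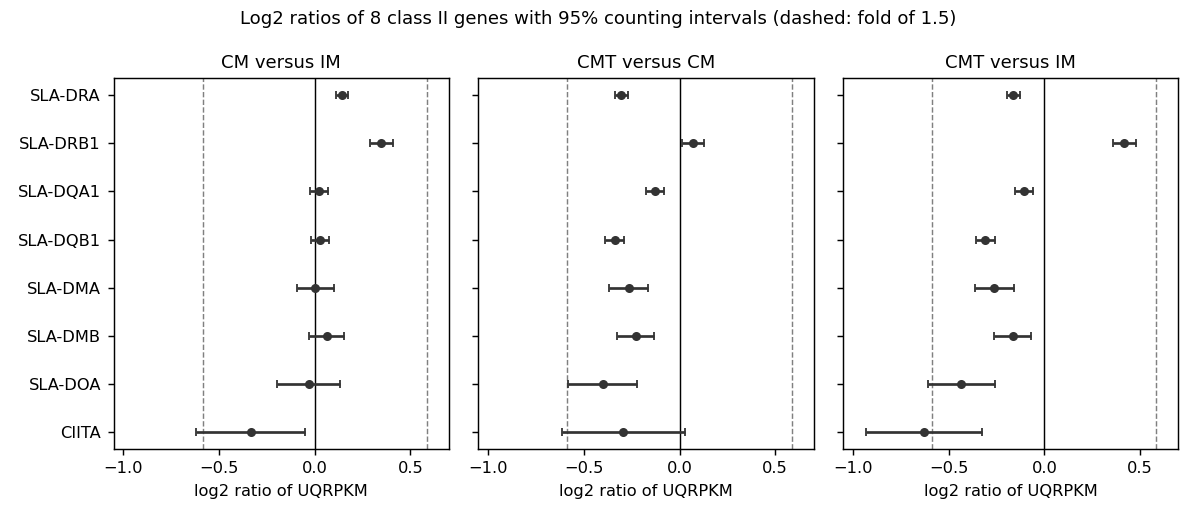
Log2 ratio of UQRPKM for 8 class II genes in each of the 3 comparisons, with bars for the exact 95% counting interval, a solid line at 0 and dashed lines at a fold of 1.5; SLA-DOB is left out because its bars are too wide. CIITA at -0.63 in CMT versus IM is the only point drawn past a dashed line, and SLA-DRB1 is the only gene drawn to the right of 0 there.

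In a complex of an alpha and a beta chain, the ratio of the partners within a library does not depend on how the library was scaled. The ratio of SLA-DRB1 to SLA-DRA was 0.233 in IM (95% interval 0.225 to 0.241), 0.268 in CM (0.260 to 0.277) and 0.348 in CMT (0.337 to 0.359). These intervals do not overlap. The ratio was 1.15-fold higher in CM than in IM and 1.49-fold higher in CMT than in IM. On the log2 scale it was 0.58 higher in CMT than in IM, with a 95% interval from 0.51 to 0.65 by the normal approximation for log ratios of counts.

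The DQ partners were nearly equal. The ratio of SLA-DQB1 to SLA-DQA1 was 1.11 in both IM and CM, with intervals from 1.07 to 1.14 and from 1.08 to 1.15, and 0.962 in CMT (0.929 to 0.997). The ratio of SLA-DMB to SLA-DMA was 0.863, 0.899 and 0.922, with intervals that all overlapped. Between isotypes, SLA-DQB1 exceeded SLA-DRB1 2.04-fold in IM, 1.63-fold in CM and 1.23-fold in CMT. The ratio of SLA-DOA to SLA-DMA was 0.202, 0.197 and 0.179, again with overlapping intervals. CIITA stood at 0.00593, 0.00427 and 0.00430 of SLA-DRA. On the log2 scale this ratio was lower in CM than in IM by the value -0.47 (95% interval -0.76 to -0.19), and CMT differed from CM by 0.0094 (-0.30 to 0.32).

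**Figure D3:**
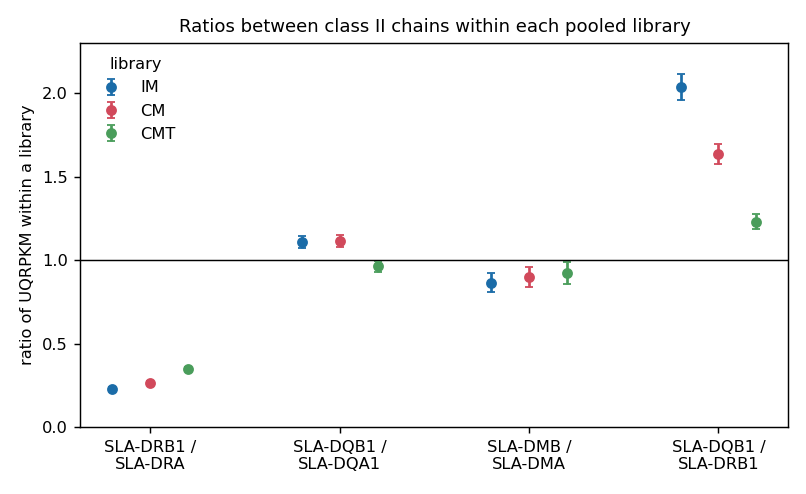
Ratio of UQRPKM between class II chains within the IM, CM and CMT libraries, with bars for the exact 95% counting interval and a line at 1. The ratio of SLA-DRB1 to SLA-DRA goes from 0.233 in IM to 0.348 in CMT, and that of SLA-DQB1 to SLA-DRB1 from 2.04 to 1.23, while the intervals of SLA-DMB to SLA-DMA overlap.

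Further class II loci can share reads with the members, since the SLA region holds near-identical copies and differs between animals. How reads that match several genes were counted is not given in the sources used here, and the pools hold different pigs. In the order of genes on the Sscrofa11.1 assembly, SLA-DRB4 and LOC100153969 lie between SLA-DRA and SLA-DRB1, SLA-DQB2 lies between SLA-DQA1 and SLA-DQB1, and LOC100513097 and SLA-DRB5 follow SLA-DQB1. The gene table of that assembly classes SLA-DRB4, LOC100153969, SLA-DQB2, SLA-DRB5 and SLA-DYB as pseudogenes. The values of the members with such copies, SLA-DRB1, SLA-DQB1 and SLA-DOB, and their chain ratios are therefore uncertain.

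LOC100513097, a DRB-like beta chain by the study's gene description, had 158, 103 and 31.6 UQRPKM from 199, 124 and 39 reads. Its intervals did not overlap between any of the libraries, and it was 4.9998-fold lower in CMT than in IM (log2 ratio -2.32, 95% interval -2.86 to -1.82). LOC100153969, a further DRB-like locus, had 40.5, 52.8 and 69.9 UQRPKM, with a log2 ratio of 0.79 (0.26 to 1.33) in CMT/IM. These loci thus stood in opposite order over the libraries. For LOC100153969, however, the intervals of CM/IM (-0.18 to 0.96) and CMT/CM (-0.09 to 0.91) included 0. Summed with SLA-DRB1, the DRB loci of type mRNA had 2256, 2774 and 2851 UQRPKM, so SLA-DRB1 held nearly all of the sum.

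Among the 5 class II loci classed as ncRNA in the deposited values, SLA-DQB2 had the largest ratio in CM/IM. It had 81.3, 12.7 and 46.8 UQRPKM from 94, 14 and 53 reads, and was 6.399-fold lower in CM than in IM (log2 ratio -2.68, 95% interval -3.60 to -1.86). Its neighbour SLA-DQB1 differed 1.02-fold in the same comparison. SLA-DRB4 had 19.6, 10.3 and 9.21 UQRPKM, a log2 ratio of -0.93 for CM/IM (-1.21 to -0.64). SLA-DOB2 had 14.8, 39.8 and 30.1 UQRPKM from 21, 54 and 42 reads. SLA-DRB5 was listed at 0 in every library, and SLA-DYB had 1 read, in CMT.

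**Figure D4:**
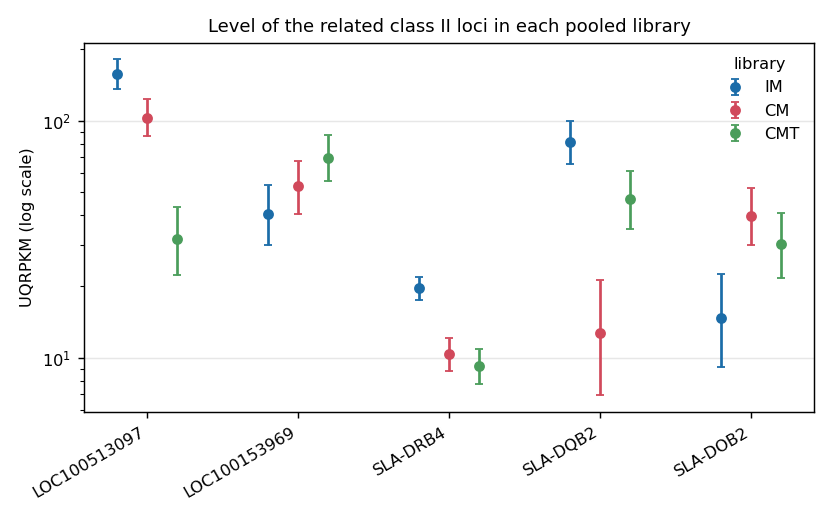
Level in UQRPKM (log axis) of 5 further class II loci in the IM, CM and CMT libraries, with bars for the exact Poisson 95% interval of the reads. LOC100513097 goes from 158 in IM to 31.6 in CMT, and SLA-DQB2 is at 81.3 in IM, 12.7 in CM and 46.8 in CMT.

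Other genes of the route were followed through lists. Their counts past the fold stand beside the shares of all mRNA genes given above. These were 8.38% upward and 10.4% downward in CM/IM, and 9.53% and 9.97% in CMT/CM. The endosomal list holds the proteases that cut antigens and CD74, the thiol reductase IFI30 and proteins of late endosomes. Of its 18 genes at 1 UQRPKM or more in both libraries, 0 passed the fold in CM/IM, with a median log2 ratio of -0.14. In CMT/CM 1 of 18 passed, upward, and the median was -0.00197. CTSS, a cathepsin that cuts CD74, had 597, 620.1 and 757 UQRPKM, with 0.29 as log2 of CMT/CM (95% interval 0.18 to 0.39). SLA-DRA and CTSS thus differed in opposite directions there. CTSL, another cathepsin, had 1550.3, 1237 and 1726 UQRPKM, the asparagine-specific protease LGMN had 1369, 1277 and 1172, and IFI30 had 732, 611 and 606. The gene past the fold was NAPSA, an aspartic protease, with 10.05, 6.88 and 16.5 UQRPKM from 23, 15 and 37 reads.

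The list of the transcription complex holds RFX, NFY and CREB factors and coactivators that work with CIITA. In CM/IM 0 of 11 genes passed the fold upward and 2 passed downward, with a median log2 ratio of -0.23. In CMT/CM 2 passed upward and 0 downward, with a median of 0.0049. CREBBP and NFYA were the genes past the fold in both comparisons. CREBBP, a histone acetyltransferase, had 19.96, 5.81 and 19.2 UQRPKM from 155, 43 and 146 reads, with -1.78 as log2 of CM/IM (95% interval -2.30 to -1.28). NFYA had 7.36, 2.77 and 4.43 UQRPKM from 39, 14 and 23 reads, and its interval included 0 in CMT/CM. RFX5, which binds the X box of class II promoters, had 101, 73.2 and 78.1 UQRPKM, and its partner RFXAP had 97.4, 72.2 and 94.99. EP300, the paralogue of CREBBP, had 246, 210.1 and 207 UQRPKM. RFXANK was listed at 0 in all libraries.

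Interferon gamma is a main inducer of CIITA outside professional antigen-presenting cells. IFNG itself had 5, 0 and 1 reads. Of 10 genes of this route at 1 UQRPKM or more, 1 passed upward and 0 downward in CM/IM, with a median log2 ratio of -0.14. In CMT/CM 1 passed upward and 1 downward, with a median of -0.01. PRDM1 was the gene past the fold upward in CM/IM and downward in CMT/CM. It had 2.27, 4.37 and 2.90 UQRPKM from 12, 22 and 15 reads, and both intervals (-0.13 to 2.09 and -1.64 to 0.42) included 0. IRF1, an interferon-induced activator of CIITA, had 349.5, 327 and 232 UQRPKM. Its log2 ratio was -0.50 (95% interval -0.64 to -0.35) in CMT/CM and -0.59 (-0.73 to -0.45) in CMT/IM, where it stood just past the fold. As for CIITA, either other scaling (-0.55 and -0.51) ended that call. IRF8, a factor of macrophages and dendritic cells, had 96.9, 84.2 and 144 UQRPKM and was past the fold in CMT/CM (log2 ratio 0.77, 0.46 to 1.09). SPI1, the myeloid factor PU.1, had 160.4, 194 and 150.1 UQRPKM. The cathepsin gene CTSD, which nearly every cell uses, was listed at 0 in all libraries, so a listing at 0 does not show absence.

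Of 9 genes for turnover and traffic of class II molecules, 0 passed the fold in either comparison, and the medians were -0.24 in CM/IM and 0.05 in CMT/CM. MARCH1, a ubiquitin ligase that takes class II molecules off the surface, had 11.5, 11.1 and 12.01 UQRPKM. On the side of costimulation and CD4, 1 of 8 genes passed upward in CM/IM and 0 downward, with a median of -0.10, and in CMT/CM 2 passed upward and 1 downward, with a median of -0.13. CD86, a costimulatory ligand on antigen-presenting cells, had 17.1, 25.7 and 19.5 UQRPKM, with 0.59 as log2 of CM/IM (95% interval 0.22 to 0.96). CD40LG, the T cell ligand of CD40, had 4, 3 and 12 reads. CD4, the coreceptor that binds class II molecules, had 11.7, 8.02 and 5.95 UQRPKM, a log2 ratio of -0.97 (-1.67 to -0.30) in CMT/IM.

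The cells that usually carry class II molecules were followed by their markers. Of 17 macrophage and monocyte genes, 6 were past the fold upward and 0 downward in CM/IM, and 0 upward and 6 downward in CMT/CM, with medians of 0.21 and -0.18. EMR1, a surface receptor of macrophages, had 45.6, 93.6 and 30.6 UQRPKM. LYZ, lysozyme, had 41.4, 97.5 and 26.6, and the scavenger receptor MARCO had 16.8, 37.9 and 10.7. LOC100520753, named CD68 in the study, had 17.2, 42.9 and 22.2. In CM/IM these genes had log2 ratios from 1.04 to 1.31, where SLA-DRA had 0.14. GP91-PHOX, the CYBB of this list, had 95.9, 147.1 and 82.5 UQRPKM and was past the fold in both comparisons. The study picked out EMR1, LOC100520753 and GP91-PHOX from these same libraries. It also measured EMR1 and LOC100520753 by quantitative PCR on RNA of the sequenced groups, and reported both higher in CM and lower in CMT.

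Not every macrophage gene was higher in CM. The complement genes C1QA and C1QC, which tissue macrophages make, had 2833 and 3222 UQRPKM in IM, 2100.2 and 2618 in CM, and 1993 and 2452 in CMT. C1QB, of the same complement complex, went the other way, with 763, 871 and 896 UQRPKM. Its log2 ratio in CM/IM was 0.19 (95% interval 0.08 to 0.31). The summed level of the macrophage list was 9949.9, 9257 and 8368 UQRPKM, of which C1QA and C1QC held 60.9%, 51.0% and 53.1%. Without C1QA and C1QC, but with C1QB kept, the sum was 3895, 4539 and 3922 UQRPKM, highest in CM. C1QA and C1QC were left out after their values were seen, and both were lower in CM than in IM. The order of the reduced sum thus follows from that choice. CD163 was listed at 0. The part of macrophages in the class II values was not tested.

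Of 9 dendritic cell genes, 2 were past the fold upward and 1 downward in CM/IM, and 2 upward and 0 downward in CMT/CM, with medians of -0.05 and 0.19. FLT3, the growth factor receptor of dendritic cells, had 23, 44 and 35 reads, and the chemokine receptor XCR1 had 48, 54 and 63. FLT3 and LAMP3 were the genes past the fold upward in CM/IM. LAMP3 had 4, 8 and 10 reads, and its interval there (-0.83 to 3.25) included 0. CADM1, an adhesion molecule of cross-presenting dendritic cells that other cells also make, had 74.3, 37.1 and 62.95 UQRPKM. The summed level of the list was 1639, 1319.5 and 1479.6 UQRPKM, most of it the lectin gene CD209, and CD1A and CLEC10A were listed at 0. The part of dendritic cells in the class II values was not tested.

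B cell genes were scarce. Their summed level over 14 genes was 242, 211 and 273 UQRPKM, and the defining genes MS4A1 and PAX5 had at most 17 and 3 reads in any library. Of 10 genes, 0 were past the fold upward and 3 downward in CM/IM, and 5 upward and 2 downward in CMT/CM, with medians of -0.10 and 0.39. CD79B, a subunit of the B cell receptor, had 21.0, 9.05 and 14.9 UQRPKM. CR2, which B cells and follicular dendritic cells share, had 35.0, 36.5 and 59.9 UQRPKM. The plasma cell genes MZB1 and IGJ had 39.8 and 36.0 UQRPKM in IM, 19.7 and 39.9 in CM, and 30.3 and 61.0 in CMT. The part of B cells in the values of SLA-DOB, a gene known from B cells, was not tested.

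The T cell list, the side that reads class II molecules, had 0 of 13 genes past the fold upward and 2 downward in CM/IM, and 3 upward and 2 downward in CMT/CM, with medians of -0.18 and 0.04. The kinase LCK had 67.1, 30.9 and 56.1 UQRPKM. CD3E, a chain of the T cell receptor complex, had 71.9, 49.2 and 82.8 UQRPKM. The chains CD3D (35.0, 35.1 and 28.3) and CD3G (34.0, 38.9 and 53.0) of the same complex were not lower in CM than in IM. CD8B, of the coreceptor for class I molecules, had 16.5, 20.5 and 7.08 UQRPKM, while CD8A had 80.2, 84.1 and 82.1. The summed level of the list was 1928, 1639 and 1732 UQRPKM, of which CD247, a signalling chain, held 71.5%, 71.5% and 69.6%.

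**Figure D5:**
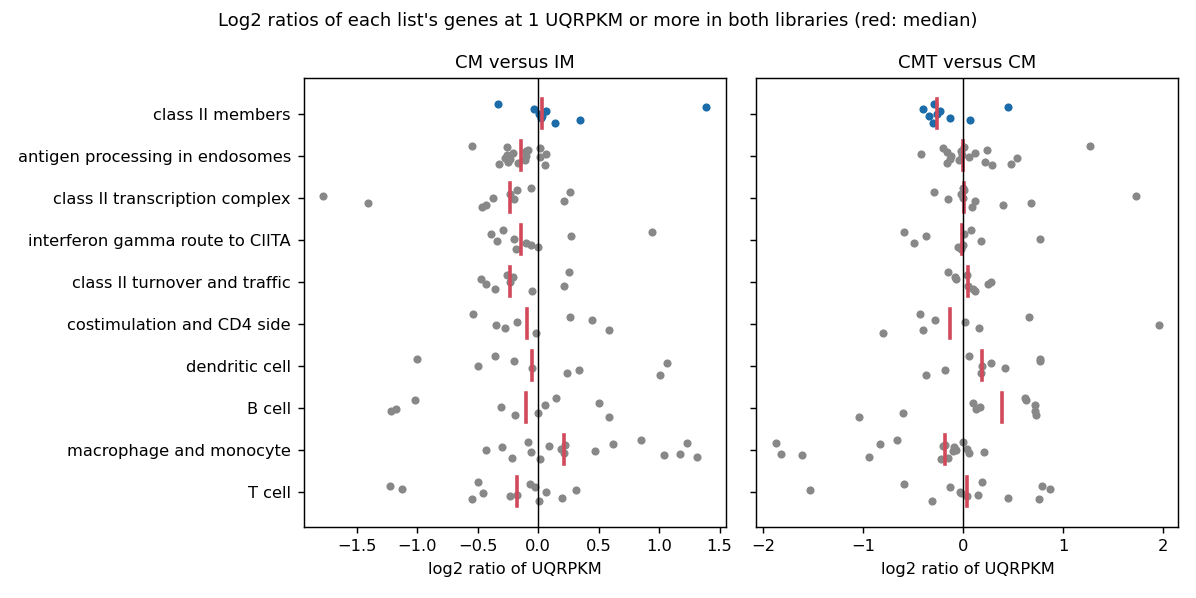
Log2 ratio of UQRPKM of each gene at 1 UQRPKM or more in both libraries, by list, in CM versus IM (left) and CMT versus CM (right), with the class II members in blue and the median of each list as a red line. The class II median is 0.03 on the left and -0.27 on the right, and 6 macrophage genes lie past the fold to the right in CM versus IM and to the left in CMT versus CM.

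Markers of other tissues differed far more between these libraries than most class II genes did. The summed level of liver markers was 2557, 9435 and 1737 UQRPKM, but APOA1 alone made up 2539, 2339 and 1714 of it. Without APOA1 the liver sum was 17.9, 7097 and 22.4 UQRPKM, with ALB (albumin) at 2.61, 2910.1 and 4.001, so the other liver markers stood out in CM. Skeletal muscle markers summed to 82.5, 68.3 and 6145 UQRPKM, and mesothelial markers to 157, 297 and 743. Neutrophil markers summed to 814, 5654 and 1431 UQRPKM, nearly all from S100A8, S100A9, S100A12 and LCN2, while the neutrophil receptor CXCR2 had 25, 22 and 21 reads, CSF3R was listed at 0, and MPO and ELANE had at most 1 read. The adipocyte list summed to 149842, 142385 and 119721 UQRPKM, with median log2 ratios of 0.01 in CM/IM and -0.24 in CMT/CM, and its genes past the fold were LEP (leptin; 167, 502 and 156) and PLIN4 (a lipid droplet protein; 8944, 9349 and 4585). The labelled tissue thus had its defining markers, with ADIPOQ at 74928, 69193 and 63873 UQRPKM. S100A8, S100A9, S100A12, LCN2 and LEP were among the genes that the study named from these same libraries. The study also measured S100A9, LCN2 and LEP by quantitative PCR, and leptin in serum. It reported each of these higher in CM and lower in CMT. Endothelial markers summed to 10798, 9217 and 9593 UQRPKM, with medians of -0.25 and -0.03, and ESAM was past the fold (530, 250.4 and 291). In lymph node stroma, the chemokine CCL21 had 275, 219.8 and 417 UQRPKM. CCL19, a more abundant chemokine of the same list, was lowest in CMT, with 1152, 1023 and 916 UQRPKM. LTB, also of this list, had 28.6, 30.7 and 29.5 UQRPKM. In the list, 0 of 4 genes were past the fold in CM/IM and 2 of 4, both upward, in CMT/CM. The part of these tissues in the class II values was not tested.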

How the data were processed

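Total RNA of visceral adipose tissue was pooled by group into the libraries IM, CM and CMT and sequenced on an Ion Proton. Per the labels and the study's methods, the authors mapped filtered reads to Sscrofa 10.2 and deposited 1 RPKM value per gene and library, scaled by the upper quartile (UQRPKM). The counting tool and annotation are not given in the sources used here. Titles gave the groups. Whole reads were recovered as the smallest numbers that gave the values of all 3 libraries, with upper quartiles in the ratio of 149 to 142 to 146, for all 20838 genes above 0 (largest relative error 7.65e-09). A common factor can make them too low. The recovery was checked on simulated data.

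Log2 ratios used UQRPKM without a pseudocount, over mRNA genes. Calls used 1.5-fold with at least 1 UQRPKM in both libraries, since 1 library per group allows no test. Intervals came from scipy 1.17.1 in Python 3.11.15. Of 222 names in 17 lists, 195 were found by symbol or through the RefSeq gene table of Sscrofa11.1. That table served for names, gene order and gene class only because the builds differ. The members and lists were chosen with earlier results of these data known. The text names all members, related class II loci, the 5 genes of the most similar pattern, and up to 4 genes of each list past the fold with at least 10 UQRPKM in a library. Other list genes, and the related loci of type ncRNA, were picked with their values known, and a few list genes are not reported here by name. The DRB-like loci were found through the study's gene descriptions. Alternatives were 2 other scalings, a pseudocount of 1, a fold of 2, other minimum values, the mean, added related loci, and a requirement on the interval.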

Additional observations from a re-analysis of the deposited data

How the results depend on the processing

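Leaving out a replicate could not be tried with 1 library per group. No paired analysis was possible because each group has 1 library. When the counting interval also had to leave out 0, 0 members passed the fold in CM/IM and 1, CIITA, did in CMT/IM. In CMT/IM, 1 member passed with either other scaling and 1 with a fold of 2, in place of 2. This was SLA-DOB each time, so neither CIITA nor SLA-DOB passed under every alternative. In CMT/CM, 0 members passed under each alternative. The mean in place of the median gave 0.18 in CM/IM, -0.16 in CMT/CM and 0.021 in CMT/IM. Under the other alternatives the median lay between 0.03 and 0.09 in CM/IM, between -0.28 and -0.24 in CMT/CM, and between -0.21 and -0.08 in CMT/IM. Of 27 log2 ratios of single members, 1 changed its sign under the centring described for CM/IM, that of SLA-DOA in CM/IM (0.030). Under the other scaling or with a pseudocount of 1, 0 did so. By size, 8 of the 27 moved beyond their counting interval under that centring and 1 under the other scaling. Chosen after seeing the data, list sums without their leading genes are given in the text, and counts of intervals that left out 0 were taken under both scalings. In CM/IM they came to 3 above and 1 below 0 with total scaling and to 5 and 0 with centring, in place of 2 and 1. In CMT/CM they stayed at 1 and 6, and in CMT/IM they were 1 and 7 with total scaling and 1 and 5 with centring. That centring moved CM/IM by 0.06 and CMT/IM by 0.08 on the log2 scale. Depth limits SLA-DOB most, and the lack of replicates limits every comparison.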

Other observations

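With only 3 libraries, a likeness of pattern to the class II genes is a weak description. Of 7393 mRNA genes at or above 50 UQRPKM in all libraries, 407 (5.51%) lay within 0.1 of the class II medians of both CM/IM and CMT/CM on the log2 scale. The closest 5 were CEBPG, PGM3, ABCG2, LAGE3 and HNRNPH1, and the farthest of them, HNRNPH1, lay within 0.0113 of both medians.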
